A study of Caenorhabditis elegans with 22 samples.

Results

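In day 1 adult Caenorhabditis elegans, 106 transcripts were higher in total RNA of a triple mutant lacking RNA editing and the ERI-6/7 helicase, while neither the editing mutant nor the helicase mutant alone showed a rise of similar size. They were taken from 27236 loci of at least 200 bp. A locus was chosen when log2(FPKM + 1) in the triple mutant exceeded wild type by at least 1.5 and both adr-1;adr-2 and eri-6 stayed less than 0.75 above wild type. FPKM is a fragment count scaled by transcript length and library size. The rule took 112 loci, or 0.411% of those examined, and 6 were dropped by name (hsp-4, srp-7, Y41C4A.11, fbxa-30, fbxa-162 and F22E5.6). By RefSeq annotation of build WBcel235, 21 of the 106 were protein-coding and 85 were noncoding: 80 ncRNAs of no further class, 4 snoRNAs and 1 pseudogene. The members were chosen by these total RNA values, which are given below as a description with no test.

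ADAR enzymes convert adenosine to inosine in double-stranded RNA, which alters how RNA interference and antiviral sensors handle it. Worms have the ADAR family genes adr-1 and adr-2, and ADR-2 is the active deaminase. ERI-6/7 is a helicase related to human MOV10 that acts with the Argonaute ERGO-1 to make a class of endogenous siRNAs against recently duplicated and foreign-like genes. DRH-1 is a helicase related to RIG-I with a role in antiviral RNAi. NRDE-3 brings siRNAs into the nucleus.

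The triple mutant, adr-1 eri-6;adr-2, was strain GR1744, with allele gv6 of adr-1, gv42 of adr-2 and mg379 of eri-6. In total RNA, adr-1;adr-2 was labelled strain BB4 with alleles tm668 and ok735, eri-6 was strain GR1814 with mg379, and wild type was N2. The labels of BB4 conflict, since its small RNA library is labelled gv6 and gv42. Whether the triple mutant and adr-1;adr-2 in total RNA share their adr alleles is therefore not settled by the labels, and effects of strain and of genotype cannot be told apart. All animals were whole young adults with embryos, 70 h after L1 arrest, grown for 71 h at 20 °C. Ribosomal RNA was depleted for total RNA, with 2 libraries per genotype pooled by the authors into 1 value with bounds. Polyadenylated mRNA was sequenced from 1 library each of the triple mutant and N2 on bacteria for control (L4440), drh-1 or nrde-3 RNAi. Small RNA of 18 to 28 nt was sequenced from 2 libraries per genotype. For small RNA, adr-1;adr-2 was BB4 (gv6 and gv42) in replicate 1 and BB21 (tm668 and ok735) in replicate 2, and wild type was GR1831, with the transgene mgIs30, in replicate 1 and N2 in replicate 2. The labels do not say that libraries of a genotype were separate cultures, so small RNA p-values measure only the spread between these samples. The depth of total RNA and mRNA is unknown, and small RNA depth was 10904105 to 32303754 reads. In total RNA wild type stood apart. Over loci of at least 200 bp its FPKM summed to 16886400, against 2852520 in the triple mutant, 2945690 in adr-1;adr-2 and 5857220 in eri-6. Of these loci 13568 were listed at 0 in wild type, 11436 in the triple mutant, 10333 in adr-1;adr-2 and 11185 in eri-6. A value of 0 is therefore not read as absence of the RNA, and the part of these differences in the members' values was not tested.

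Whole-worm samples differed in tissue markers. Oocyte markers, 6 of which were measured in total RNA, summed to 500.4 FPKM in the triple mutant, 545 in adr-1;adr-2, 214 in eri-6 and 102 in wild type. Sperm markers, 12 measured, summed to 66.6, 53.9, 51.97 and 14.5 FPKM in the same order, and intestine markers, 8 measured, to 894, 1456, 1776 and 3884. No oocyte or intestine marker was listed at 0 in wild type, and 3 sperm markers were. The part of these shifts in the members' values was not tested, and in whole animals fewer cells of a type and less RNA per cell cannot be told apart.

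Among protein-coding members the rise was clearest for 10 genes whose lower bound in the triple mutant lay above the upper bounds of all 3 other genotypes. Over all loci, 0.441% met that condition. The same contrast chose the members, so nothing is read from their share. What confidence the bounds stand for is not stated.

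The most abundant was cdr-4 (V:12407366-12408625), of the cadmium-responsive family. It had 199 FPKM in the triple mutant (bounds 150 to 249), against 34.4 in adr-1;adr-2, 35.5 in eri-6 and 42.01 in wild type (upper bound 52.9). It was the only member among 6 cdr genes measured, a family chosen after values were seen. The others had less total RNA in the triple mutant than in wild type: cdr-1 had 0.659 FPKM in the triple mutant and 24.03 in wild type, and cdr-6 had 32.2 and 125 FPKM.

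The bre-1 gene (IV:8987266-8990444) encodes GDP-mannose 4,6-dehydratase, an early enzyme of GDP-fucose synthesis whose loss makes worms resistant to a Bacillus thuringiensis crystal toxin. It had 95.6 FPKM in the triple mutant (bounds 71.6 to 120), against 15.0 in adr-1;adr-2, 22.05 in eri-6 and 24.7 in wild type. Of the 5 bre genes it alone met the rule, and bre-5 had 25.8 FPKM in the triple mutant, 31.01 in adr-1;adr-2, 35.2 in eri-6 and 17.4 in wild type.

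T14G8.3 (X:12861237-12870037), an HSP70-family gene related to the endoplasmic reticulum chaperone HYOU1, had 46.0 FPKM in the triple mutant (bounds 34.3 to 57.7), against 12.2 in adr-1;adr-2, 9.53 in eri-6 and 11.9 in wild type. The remaining genes with separate bounds were less abundant. F47A4.5 had 10.3 FPKM in the triple mutant and 1.96 to 2.62 in the other genotypes, and lips-11 (II:1108841-1111001), a lipase-related gene, had 6.26 against 0.1003 to 0.326. ZC239.14, C08F11.7, F57B9.3, C49G7.7 and Y47D7A.13 were at 3.20 to 6.89 FPKM in the triple mutant.

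In the other 11 protein-coding members at least 1 pair of bounds met or overlapped. They include sepa-1, which encodes a P granule receptor for autophagy, at 6.28 FPKM in the triple mutant (bounds 0 to 13.9), 0.421 in adr-1;adr-2, 1.84 in eri-6 and 1.26 in wild type. The insulin-like peptide gene ins-34 had 1.91 FPKM in the triple mutant (bounds 0 to 3.87), 0.199 in adr-1;adr-2 and was listed at 0 in eri-6 and wild type. Y48G8AL.16, nearest the threshold at a log2 difference of 1.502, had 5.79 FPKM with bounds from 0 to 37.2 in the triple mutant. Of the 21 protein-coding members, 15 were under 10 FPKM in the triple mutant.

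**Figure D1:**
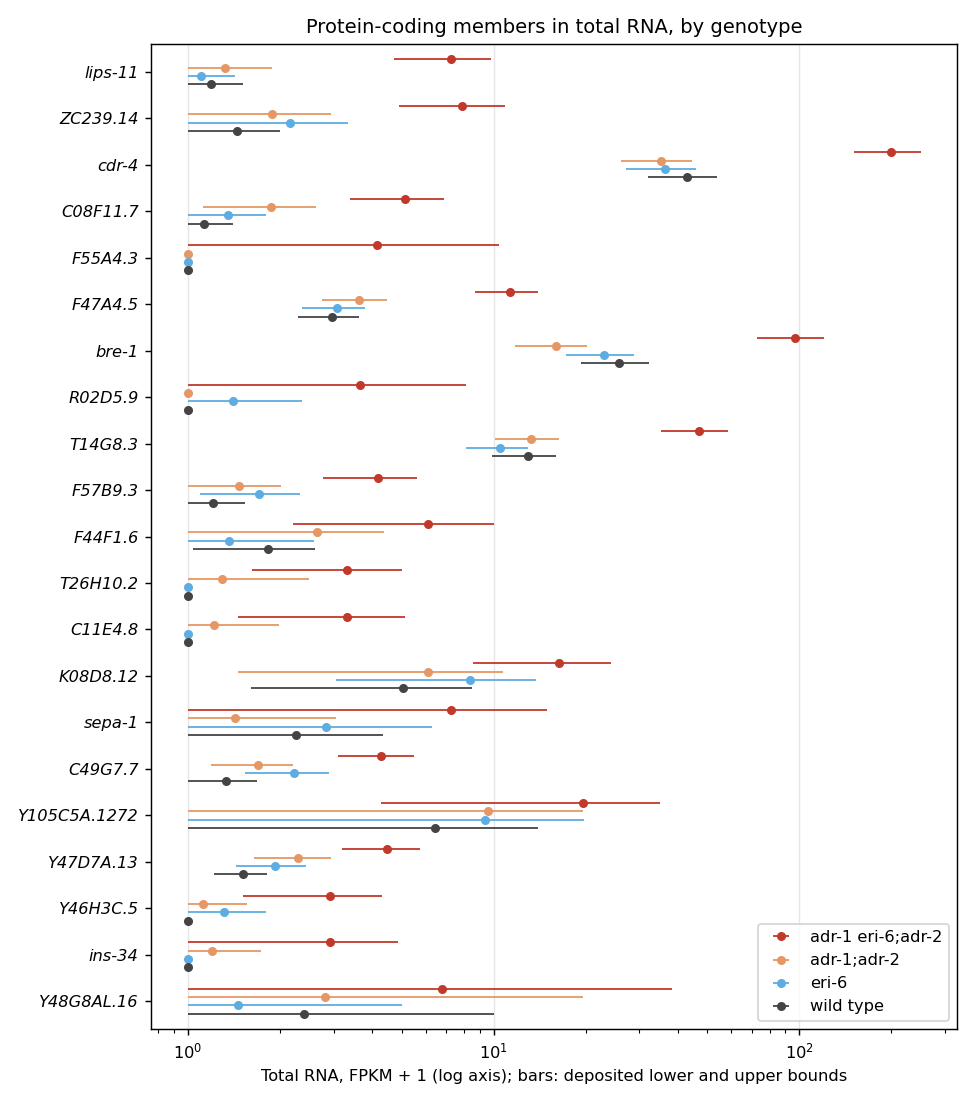
Total RNA FPKM + 1 (horizontal log axis) of the 21 protein-coding members, with genotypes in colour; points are deposited values and bars the deposited lower and upper bounds. cdr-4, bre-1 and T14G8.3 reach 199, 95.6 and 46.0 FPKM in the triple mutant, and in 10 genes its bar lies clear of the other 3.

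Members just inside the threshold were ins-34, Y46H3C.5 and Y47D7A.13 (log2 differences of 1.54, 1.54 and 1.56), Y48G8AL.16 and the ncRNA T25F10.10 (1.52). Just outside lay T20B12.11 at 1.47, F59E12.16 at 1.46, Y32B12A.4 at 1.43, Y58G8A.5 at 1.42 and T26H5.4 at 1.40. Other loci missed the limit in 1 other mutant: kgb-2 was 0.79 above wild type in adr-1;adr-2, and F19B10.2 was 0.79 above it in eri-6.

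The noncoding members were a different kind of locus. Of these 85 RNAs, 83 were listed at 0 in adr-1;adr-2, eri-6 and wild type, against 1 of the 21 protein-coding members, F55A4.3. The 20 largest log2 differences all belonged to noncoding RNAs, 15 of them under 100 nt, and the first protein-coding member stood at rank 46. RefSeq lengths were 56 to 299 nt with a median of 141. The 200 bp minimum did not remove them because the deposited locus was often that of a longer overlapping gene, with a median of 8426 bp, and 82 shared their locus with another gene.

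Shorter RNAs had higher FPKM. The 15 under 100 nt had a median of 71.0 FPKM in the triple mutant (range 27.3 to 927), against 4.704 in the 70 longer ones. Y53H1C.6, of 56 nt, had 927 FPKM, F26D12.99, of 57 nt, had 720, and K02A6.6, of 60 nt, had 392.5. Across the 83 noncoding members listed at 0 elsewhere, Spearman's rho between RefSeq length and FPKM was −0.82. These points share the same libraries and the same division by length, and the loci were chosen by a minimum of the same FPKM. A negative rho is therefore partly built in, and nothing is read from it.

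The triple mutant was not alone in holding such loci. At the FPKM that the threshold of 1.5 requires of a locus at 0 in wild type, 1.83, 84 loci were seen in the triple mutant alone, 164 in adr-1;adr-2 alone, 105 in eri-6 alone and 68 in wild type alone. Among the noncoding ones under 300 nt in each genotype, rho between length and FPKM was −0.82 over 83 loci in the triple mutant, −0.72 over 155 in adr-1;adr-2, −0.89 over 91 in eri-6 and −0.96 over 62 in wild type. Each of these sets was chosen by the same cut on the values correlated, so the rho values are description only. Short RNAs listed above 0 in a single genotype were found in every genotype.

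**Figure D2:**
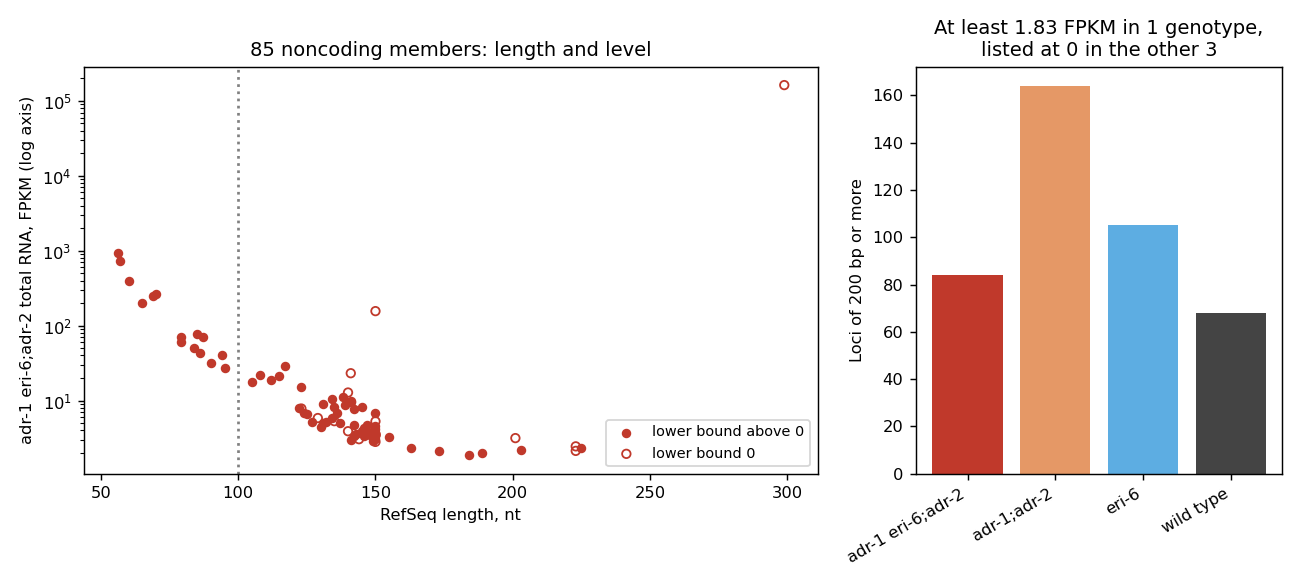
Left, RefSeq length (nt) against total RNA FPKM in the triple mutant (log axis) for the 85 noncoding members, open where the deposited lower bound is 0; the dotted line marks 100 nt. Right, number of loci at 1.83 FPKM or more in 1 genotype and listed at 0 in the other 3: 84, 164, 105 and 68.

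The extreme value was ZC155.8 (III:5211220-5211518), an RNA of 299 nt named srpr-2.1 in RefSeq, a signal recognition particle RNA gene. It had 162599 FPKM in the triple mutant and was listed at 0 elsewhere, but its bounds ran from 0 to 442580. B0285.12 (srpr-1.2), another gene of that name and the same length, had 95067 FPKM in the triple mutant, 102138 in adr-1;adr-2, 255040 in eri-6 and 0 in wild type. How reads were divided between near-identical copies is not stated, so the level of ZC155.8 alone is uncertain.

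Only C14B9.11 and R13H4.10 among the noncoding members were above 0 in another genotype. C14B9.11 (III:8136488-8136637) lies over C14B9.2, a protein disulfide isomerase gene, and had 156.2 FPKM in the triple mutant, 41.5 in adr-1;adr-2, 52.9 in eri-6 and 49.7 in wild type, with a lower bound of 0 in all 4. R13H4.10, over hmp-1, had 2.44 FPKM in the triple mutant and 0.470 in adr-1;adr-2, and was listed at 0 in eri-6 and wild type.

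Of the noncoding members, 76 overlapped a protein-coding gene. Whether counting used strand is not stated, so reads of such a pair may not be separable. The overlapped genes, 62 of them measured, had a median log2 difference of 0.14 between the triple mutant and wild type (range −1.71 to 1.89), and 7 reached 1.5. The highest was cup-2, a Derlin of endoplasmic reticulum quality control overlapped by F25D7.10, with 118.7 FPKM in the triple mutant, 63.8 in adr-1;adr-2, 45.2 in eri-6 and 31.2 in wild type. Noncoding members lay on every chromosome, from 8 on III to 23 on X, and protein-coding ones from 1 on III to 6 on V.

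No member belonged to any of 7 written gene lists: intracellular pathogen response, unfolded protein response, heat shock, other stress, innate immunity, RNAi factors and ERGO-1 class targets. The endoplasmic reticulum chaperone gene hsp-4 and the serpin gene srp-7, both in the unfolded protein response list, met the thresholds and were among the 6 dropped by name. Of the 15 genes of that list measured in total RNA, 4 were at least 1.5 above wild type in the triple mutant, against 4.74% of all loci. The list's median log2 difference from wild type was 0.87 in the triple mutant, 0.52 in adr-1;adr-2 and 0.26 in eri-6, beside a median log2 ratio over loci of at least 1 FPKM of 0.02, 0.05 and 0.09. In mRNA on control food its median difference was 0.95 and none of the 15 genes measured there reached 4-fold. The 15 in mRNA are not the same set: they include sel-1, absent from the total RNA entries used, and lack hsp-4. Of 26 RNAi factors measured in total RNA, 9 were at least 1.5 above wild type, and so were 5 of 6 oocyte markers and 5 of 12 sperm markers. The median of the RNAi factors in total RNA was 1.11 in the triple mutant, 1.23 in adr-1;adr-2 and 0.38 in eri-6. In mRNA on control food that rise was not seen. There the median difference of RNAi factors was 0.015, and 0 of the 32 measured were 4-fold higher or lower. Those 32 include genes absent from the total RNA entries used, such as rde-1. In total RNA the count at 1.5 or more was 2 of 18 for ERGO-1 class targets (median 0.78), 1 of 28 for the intracellular pathogen response (0.47), 3 of 18 for innate immunity (−0.86), 0 of 12 for heat shock (0) and 0 of 20 for other stress (−0.66). Of the 72 genes written for the intracellular pathogen response, only those 28 were found by name in total RNA. No pals gene was among them, nor eol-1 or rcs-1, so these values do not cover that part of the response.

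The mRNA libraries give a measure of the same genotypes that the rule did not use, though without adr-1;adr-2 or eri-6 animals, so they bear on the rise over wild type and not on its absence elsewhere. Each condition had 1 library and there is no test: a member was called at a 4-fold difference on FPKM + 1 and a log2 difference is on that scale. Of the 106 members 103 were in the tables, 19 of them protein-coding and 84 noncoding. On control food 14 members were higher and 5 lower in the triple mutant, against 1.39% and 0.639% of all loci. Of 19 protein-coding members 6 were higher and 0 lower (1.36% and 0.546% of protein-coding loci), and of 84 noncoding members 8 were higher and 5 lower. The share over noncoding loci alone was not counted, so no contrast between the 2 kinds is read from these counts. Tissue markers differed between these libraries too. On control food sperm markers, 12 measured, summed to 41.2 FPKM in the triple mutant and 6.11 in wild type, with 4 at least 4-fold higher. Oocyte markers, 8 measured, summed to 3509 FPKM in the triple mutant and 1986 in wild type, with none at 4-fold, and intestine markers, 9 measured, to 4909 in the triple mutant and 8914 in wild type, with none at 4-fold. Their part in the member counts was not tested. Over 10502 loci of at least 1 FPKM in both libraries, the median log2 ratio was −0.16, so a member's rise was measured against a slight overall shortfall in the triple mutant.

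On control food lips-11 differed most among protein-coding members, with 17.1 FPKM in the triple mutant and 0.0607 in wild type, a log2 difference of 4.09. cdr-4 had 603 FPKM in the triple mutant and 82.3 in wild type. F57B9.3 had 6.81 and 0.143 FPKM in the same order, and F47A4.5 had 18.5 and 1.98. T14G8.3 had 71.0 FPKM in the triple mutant and 12.5 in wild type, and C08F11.7 had 9.32 and 1.41. These 6 passed 4-fold; bre-1 did not, with 98.7 FPKM in the triple mutant and 35.3 in wild type, a log2 difference of 1.46.

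Not every protein-coding member was high in mRNA. F44F1.6, F55A4.3 and WBGene00194913 (plotted under its sequence name, on clone Y105C5A) were lower in the triple mutant than in wild type, by log2 differences of −0.60, −0.43 and −0.30. R02D5.9, T26H10.2 and Y48G8AL.16 were listed at 0 in both libraries. The other 7, bre-1 among them, lay between 0.37 (ins-34) and 1.75 (Y47D7A.13), below 4-fold.

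For 5 protein-coding members the 4-fold difference was present on all 3 foods. On nrde-3 food, 9 of 19 protein-coding members were at least 4-fold higher in the triple mutant (0.96% of protein-coding loci) and 0 lower, and on the food labelled drh-1 RNAi 8 were higher (1.12%) and 0 lower (0.381%). On nrde-3 food 0.265% of protein-coding loci were lower. These 5, given with log2 differences on control, drh-1-labelled and nrde-3 food, passed on each: lips-11 (4.09, 4.07 and 4.06), cdr-4 (2.86, 3.83 and 4.19), F57B9.3 (2.77, 2.86 and 3.96), F47A4.5 (2.71, 2.67 and 3.21) and C08F11.7 (2.097, 2.16 and 2.31). bre-1, C11E4.8 and C49G7.7 passed on both RNAi foods only, and T14G8.3 on control and nrde-3 food. The 3 foods share no library, but all triple mutant libraries are of the same strain. Over all 103 members, 13 were higher and 6 lower on nrde-3 food (1.03% and 0.502% of loci), and 11 higher and 3 lower on drh-1-labelled food (1.07% and 0.502%).

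**Figure D3:**
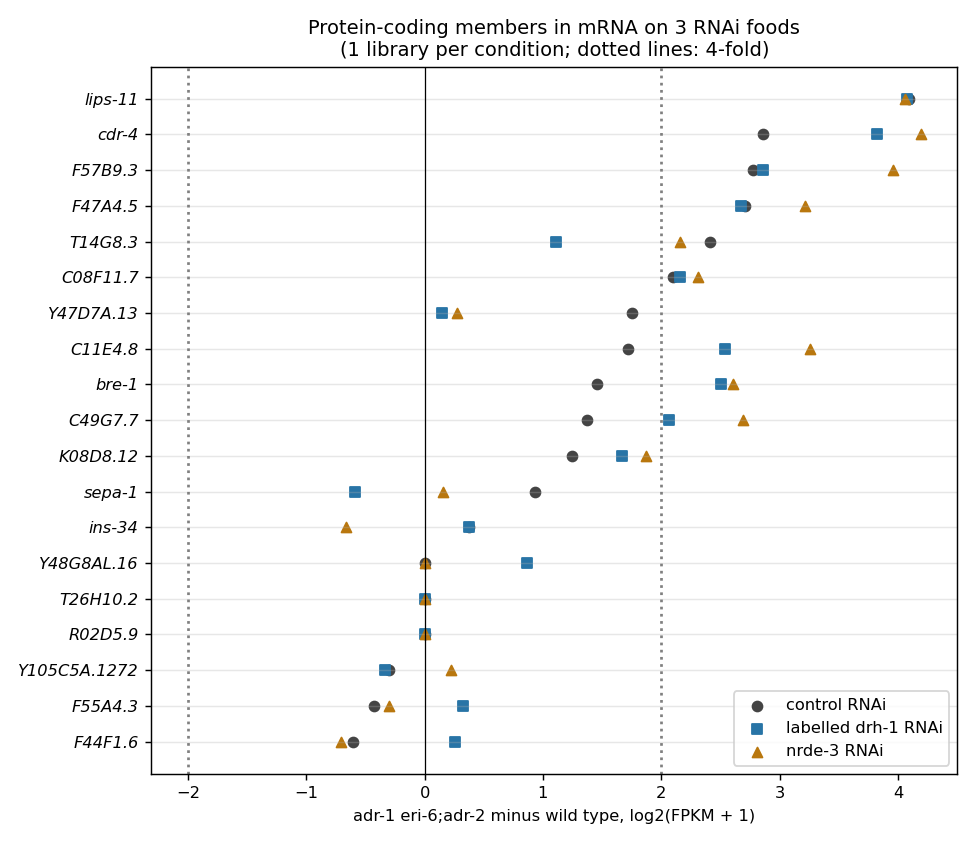
Difference in log2(FPKM + 1) between the triple mutant and wild type (horizontal axis) for the 19 protein-coding members in the mRNA tables, on control, drh-1-labelled and nrde-3 RNAi food, 1 library per condition; dotted lines mark 4-fold. lips-11, cdr-4, F57B9.3, F47A4.5 and C08F11.7 lie beyond 4-fold on each food.

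Noncoding members gave no such set. In mRNA 60 of 84 were listed at 0 in all 6 libraries, and only ZC155.8, F25D7.10 and C14B9.11 were above 0 in every one. How many other noncoding loci were listed at 0 was not counted. Polyadenylated RNA selection does not recover RNAs without a poly(A) tail, and which of these RNAs carry one is not given in the files. C14B9.11 was high in the triple mutant on each food: 497 FPKM against 173 in wild type on control, 546 against 115 on nrde-3 food, and 321 against 30.4 on drh-1-labelled food. ZC155.8 had 2.66 FPKM in the triple mutant and 21.9 in wild type on control food, the reverse of total RNA. F56F11.7, over klf-1, had 247 FPKM in the triple mutant and was listed at 0 in wild type on control food, but had 853 and 695 FPKM on nrde-3 food and 0 and 336 FPKM on drh-1-labelled food. Y41D4B.31, C32E12.8 and Y71F9AL.24 were above 0 in the triple mutant on control food alone, at 16.9, 13.3 and 10.08 FPKM. On control food C27C12.9, F09E5.21, Y54G11A.18 and C06A8.16 were listed at 0 in the triple mutant and had 46.9, 13.7, 7.33 and 4.38 FPKM in wild type.

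The RNAi foods were checked by their targets. In the libraries labelled drh-1 RNAi, drh-1 itself was higher than on control food: 65.4 FPKM against 19.02 in the triple mutant, and 32.3 against 14.3 in wild type. The drh-1 level was thus not lower where the label names drh-1 RNAi, and the cause was not tested. Whether reads of a targeted gene include RNA from the RNAi bacteria is not stated. The drh-1 level therefore does not show whether the worms' own drh-1 RNA was reduced. On nrde-3 food nrde-3 had 8.08 FPKM against 15.4 on control food in the triple mutant, and 5.26 against 5.76 in wild type. The eri-6 locus had 5.73 FPKM in total RNA of the triple mutant, 10.06 in adr-1;adr-2, 5.35 in eri-6 and 17.8 in wild type. The eri-7 locus, which encodes the other part of the helicase, ran the other way in total RNA, with 18.0 FPKM in the triple mutant, 20.8 in adr-1;adr-2, 10.11 in eri-6 and 3.39 in wild type. In mRNA on control food both loci were lower in the triple mutant. There eri-7 had 19.2 FPKM in the triple mutant and 32.7 in wild type, and eri-6 had 7.72 and 15.0. In mRNA on control food adr-1 had 19.2 FPKM in the triple mutant and 25.8 in wild type. Neither adr-1 nor adr-2 was among the total RNA entries used here, and which bases the alleles remove is not stated, so these levels do not check the adr genotype.

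Few protein-coding members reached 4-fold between either RNAi food and control food, in either genotype. In the triple mutant the library labelled drh-1 RNAi, against control food, had 1 of 19 at least 4-fold higher and 0 lower (0.182% and 1.18% of protein-coding loci); nrde-3 food had 0 in either direction (0.155% and 0.419%). With noncoding members included, 2 were higher and 6 lower in the drh-1-labelled library (0.372% and 1.24% of loci), and 4 higher and 6 lower on nrde-3 food (0.379% and 0.664%). The 6 lower on each food were noncoding. In wild type, 4 members were higher and 6 lower in the drh-1-labelled library (0.313% and 0.404%), and 7 higher and 3 lower on nrde-3 food (0.446% and 0.379%), all noncoding.

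Differences under 4-fold had a direction that varied by gene. On nrde-3 food cdr-4 had 1843 FPKM in the triple mutant against 603 on control food, while wild type had 99.8 against 82.3. bre-1 had 243 against 98.7 FPKM in the triple mutant, and 39.2 against 35.3 in wild type. Intestine markers, 9 measured, were higher as well: they summed to 9101 FPKM on nrde-3 food against 4909 on control food in the triple mutant, and to 10032 against 8914 in wild type. Their median log2 difference in the triple mutant was 0.92 on nrde-3 food and 1.18 in the drh-1-labelled library, and none of the 9 reached 4-fold. Their part in the values of cdr-4 and bre-1 was not tested. C49G7.7, F57B9.3, F55A4.3 and C11E4.8 were also at least 2-fold higher on nrde-3 food in the triple mutant, with log2 differences of 1.52, 1.31, 1.26 and 1.25, and F55A4.3 was 1.13 higher in wild type too. Over 10799 loci of at least 1 FPKM in both libraries, the median log2 ratio was 0.15 for this comparison. sepa-1 and ins-34 were at least 2-fold lower, at −1.46 and −1.103.

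In the library labelled drh-1 RNAi, T14G8.3 had 17.8 FPKM in the triple mutant against 65.2 on control food, a log2 difference of −1.82, and 7.67 against 11.5 in wild type. sepa-1 had 1.35 against 5.99 FPKM in the triple mutant, and 2.54 against 2.70 in wild type. bre-1 had 186 against 90.8 FPKM and cdr-4 989 against 554 in the triple mutant. Y48G8AL.16, the member 4-fold higher there, had 3.05 FPKM in the triple mutant and 1.23 in wild type, and was listed at 0 on control food in both. For wild type the median log2 ratio of the drh-1-labelled library over control was −0.21, over 10270 loci of at least 1 FPKM in both. Genes outside the members fell in the drh-1-labelled library of the triple mutant too. Of 32 RNAi factors measured in mRNA, 8 were at least 4-fold lower than on control food and 0 higher, with a median log2 difference of −0.62. What such shifts contribute to the values of T14G8.3 and sepa-1 was not tested. Whether any food effect differs between genotypes was not tested, since each condition had 1 library.

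**Figure D4:**
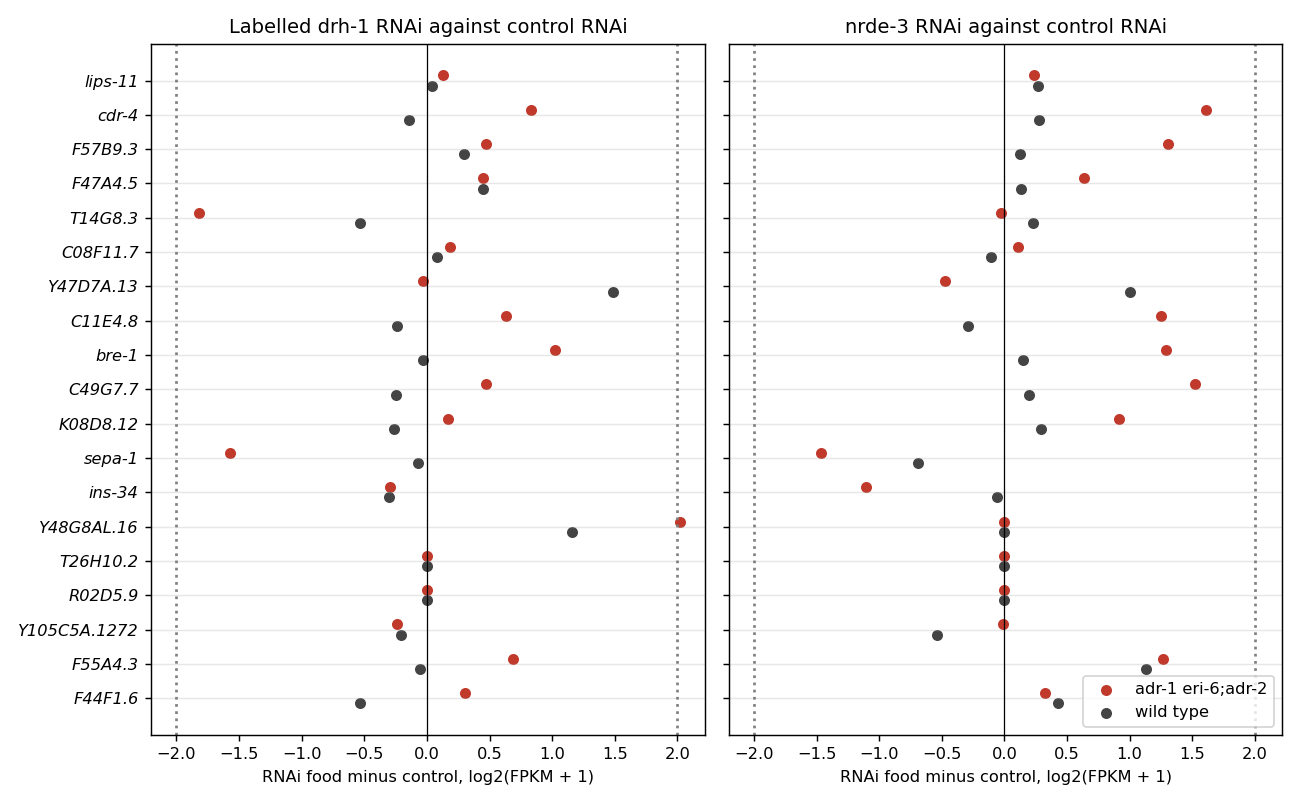
Difference in log2(FPKM + 1) between each RNAi food and control food (horizontal axis) in the triple mutant (red) and wild type (grey) for the 19 protein-coding members, 1 library per condition; dotted lines mark 4-fold. T14G8.3 and sepa-1 are lowest with drh-1-labelled food in the triple mutant, and cdr-4 is highest on nrde-3 food.

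Small RNA is the measurement with values for each replicate, and it asked whether the members lose or gain siRNA where a single pathway is missing. Of 85 noncoding members, 75 had no library with 10 reads, and 21 had 0 reads in all 6 libraries of the adr-1;adr-2, eri-6 and wild-type tables. The same counts were not made over all noncoding genes, so low reads are not read as a trait of the members. After a filter at a mean of 10 normalised reads, 20 members were tested against wild type in adr-1;adr-2, 13 of them protein-coding, and 19 in eri-6, 12 of them protein-coding. Over all 46780 genes, 23975 and 23380 passed that filter. The limma test with Benjamini-Hochberg adjustment over 23975 and 23380 genes called 0 members and 0 genes (0% of those tested) in either comparison. At an unadjusted p under 0.05 it found 0 members of 324 genes in adr-1;adr-2 and 1 member of 237 genes in eri-6, and edgeR and DESeq2 on recovered reads called 0 members.

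The lowest log2 folds in adr-1;adr-2, none of them called, were those of T14G8.3 and bre-1. T14G8.3 had 245 and 47.8 normalised reads in adr-1;adr-2 against 336 and 610 in wild type (146 ± 139 and 473 ± 193, SD, n = 2 each). The log2 fold of T14G8.3 was −2.05 ± 1.03 (SE), with a limma adjusted p of 1.00. bre-1 had 24.7 and 50.05 reads against 82.0 and 195 in wild type, a log2 fold of −1.82 ± 1.01. In both genes the groups did not overlap. Of the 20 members tested in adr-1;adr-2, 2 had both mutant libraries above wild type, 3 had both below and 15 overlapped. In eri-6 these counts were 2, 5 and 12 of 19. The share of all genes with such separation was not counted, so nothing is read from it. F47A4.5 had 89.8 and 135 reads in adr-1;adr-2 against 224 and 348 in wild type (log2 fold −1.33 ± 0.92).

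Replicates were wide apart for the other low values: F56F11.7 had a log2 fold of −1.64 ± 1.34, C14B9.11 of −1.57 ± 2.05 and C54D10.16 of −1.44 ± 2.46, with overlapping groups. On the high side Y48G8AL.16 had 65.8 and 30.7 reads in adr-1;adr-2 against 8.02 and 18.4 in wild type (log2 fold 1.80 ± 1.21), and ZC449.10 had 73.5 and 130 against 43.7 and 59.4. lips-11 and sepa-1 had log2 folds of 0.70 and 0.48 with overlapping groups. For cdr-4 the direction depended on the scale: its log2 fold was 0.44 in limma, −0.053 in edgeR and −0.16 in DESeq2, with means of 12.2 ± 2.76 reads in adr-1;adr-2 against 13.4 ± 15.1 for wild type (SD, n = 2 each).

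In eri-6, Y46H3C.5 had 5.88 and 9.24 reads against 31.2 and 91.4 in wild type, a log2 fold of −2.70 ± 1.12 (SE). It was the 1 member under an unadjusted 0.05, with a limma adjusted p of 1.00. WBGene00194913 had 260 and 579 reads in eri-6 against 903 and 1700.2 in wild type (log2 fold −1.67 ± 0.80). C14B9.11, C54D10.16 and F56F11.7 had log2 folds of −2.65, −2.04 and −1.61. F47A4.5 went the other way from its direction in adr-1;adr-2, with 555 and 564 reads in eri-6 against 212 and 312 in wild type (log2 fold 1.12 ± 0.71); both comparisons share the wild-type libraries, and this difference was not tested. cdr-4, ZC449.10 and F44F1.6 lay at 0.64, 0.64 and 0.49. C08F11.7 had no settled direction: its log2 fold was 0.25 in limma but −0.89 in edgeR and −0.91 in DESeq2, with means of 519 ± 31.7 reads in eri-6 and 962 ± 1214 in wild type (SD, n = 2 each). Leaving out 1 library moved that of C08F11.7 between −1.81 and 2.31, that of F44F1.6 between −0.094 and 1.08 and that of cdr-4 between −0.70 and 1.98.

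In the small RNA table of the triple mutant the authors deposited only a selection of genes, so its values are given as values with no test. It held 4 of the 106. C08F11.7 had 86.1 and 120 normalised reads in the triple mutant against 129 and 2399 in wild type. bre-1 had 36.5 and 71.8 reads against 96.2 and 231 in wild type. WBGene00194913 had 333 and 495 against 1120 and 2240 in wild type, and Y46H3C.5 had 5.28 and 11.2 against 38.7 and 120. All 4 were lower in the triple mutant in both replicates, and in C08F11.7 the lower wild-type library lay only just above the triple mutant's. The share of the deposited genes that were lower in both replicates was not counted, so nothing is read from this count. Of these 4 genes, C08F11.7 and bre-1 were high in triple mutant mRNA on 1 or more foods. WBGene00194913 was not, and Y46H3C.5 was not in the mRNA tables. Any link between small RNA and mRNA levels was not tested.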

How the data were processed

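The build was WBcel235 and the tools named were Cuffdiff, Cufflinks, TopHat2, DESeq2, featureCounts, BWA and Trim Galore, per the submitters' processing notes, with no versions or settings. Total RNA and mRNA values are FPKM deposited by the authors: 1 value with bounds per genotype in total RNA, and 1 per library in mRNA, scaled separately in the drh-1 and nrde-3 tables. The control-food genotype comparison uses the nrde-3 table. Small RNA values are a normalised signal deposited by the authors. They were whole reads times 1 factor per library, within 0.01 read for 100% of values. Of 36234 total RNA entries, 321 were left out because an ID had more than 1 entry, as were 344 of 37425 in each mRNA table.

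The members, lists and tests were chosen with earlier results of these data known. Members were annotated from RefSeq by name (106 of 106 matched). FPKM tables used a pseudocount of 1 and a 4-fold difference, with no test. Small RNA tables were each fitted with limma 3.58.1 (trend) in R 4.3.3 on log2(value + 1) at a mean of at least 10, with Benjamini-Hochberg adjustment at 0.05. edgeR 4.0.16 and DESeq2 1.42.0 ran on recovered reads as alternatives. Other steps used numpy 2.4.6, pandas 2.3.3, matplotlib 3.10.9 and Python 3.11.15. The rules were tested on simulated data. Genes named are the 20 largest differences in total RNA, the 5 extremes of each direction in each other comparison, members in lists or in the triple mutant small RNA table, and the 5 nearest the threshold on each side. Other protein-coding members, overlapped genes and families were named after their values were seen. Sequences and promoters were not analysed here.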

Additional observations from a re-analysis of the deposited data

Results flagged for a closer look

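Noncoding members went at least 2-fold one way on an RNAi food in the triple mutant and at least 2-fold the other way in wild type in 6 cases. Each condition had 1 library, so these differences were not tested. Only members were examined for this, so no share over all loci stands beside the count and nothing is read from it. Values are FPKM in mRNA on the RNAi food against control food, and each difference of differences is triple mutant minus wild type on the log2(FPKM + 1) scale.

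ZC155.8 met this on both foods. In the library labelled drh-1 RNAi it had 31.2 against 2.45 FPKM in the triple mutant and 5.32 against 20.1 in wild type, a difference of 4.96. On nrde-3 food it had 24.3 against 2.66 in the triple mutant and 3.003 against 21.9 in wild type, a difference of 5.303. F56F11.7 had 0 against 227 in the triple mutant and 336 against 0 in wild type with drh-1-labelled food, a difference of −16.23. F25D7.10 had 52.96 against 17.6 in the triple mutant and 8.85 against 54.9 in wild type with that food, a difference of 4.04. On nrde-3 food C27C12.9 had 24.3 against 0 in the triple mutant and 0 against 46.9 in wild type, a difference of 10.24. F29G9.17 had 0 against 9.93 in the triple mutant and 5.74 against 0 in wild type, a difference of −6.20.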

How the results depend on the processing

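The number of members depended on the pseudocount and the lengths allowed. The rule took 228 loci with a pseudocount of 0.1, of which 93 were among the 106, 161 with all lengths, and 60 when 5 FPKM was required in the triple mutant. It took 21 among protein-coding loci alone, an alternative chosen after seeing the data. With a pseudocount of 0.5, a 500 bp minimum or rescaling to the median ratio it took 145, 99 and 107. For mRNA, shares over all loci were counted only at 4-fold with a pseudocount of 1. The mRNA counts under other settings therefore show only how the member counts moved, with no share to set them against. A 2-fold rule gave 11 protein-coding members higher in the triple mutant on control food. In the triple mutant it gave 4 higher and 10 lower (2 and 2 protein-coding) with drh-1-labelled food, and 11 and 10 (6 and 2) on nrde-3 food. In wild type it gave 8 higher (2 protein-coding) with drh-1-labelled food and 2 protein-coding on nrde-3 food. A pseudocount of 0.1 gave 1 protein-coding member lower with drh-1-labelled food in the triple mutant, 8 higher in wild type (2 protein-coding), and 1 protein-coding higher in wild type on nrde-3 food. Rescaling to the median ratio left 1 member higher in the triple mutant with drh-1-labelled food, and 0 protein-coding ones.

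No small RNA setting called a member. The log2 fold of cdr-4 in adr-1;adr-2 was −0.053 in edgeR and −0.16 in DESeq2, and that of C08F11.7 in eri-6 was −0.89 and −0.91; the cause was not tested. Leaving out 1 library moved F56F11.7 in adr-1;adr-2 between −3.90 and 0.61, C54D10.16 between −3.68 and 0.65, cdr-4 between −0.94 and 0.66 and lips-11 between −0.039 and 1.43. In eri-6 it moved C08F11.7 between −1.81 and 2.31, F44F1.6 between −0.094 and 1.08 and cdr-4 between −0.70 and 1.98. In those fits the lone sample is assumed to vary like the other group. With the replicate block, 0 members were called in adr-1;adr-2 and 0 in eri-6, while over all genes it called 0 in adr-1;adr-2, and 8 higher and 98 lower in eri-6. DESeq2 called 104 genes higher and 9 lower in adr-1;adr-2, and 15 and 125 in eri-6. Replicate 1 deviations correlated at 0.60 and 0.68 across genes, but the labels do not state that a number marks a shared batch.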
